A study of Mus musculus with 6 samples.

Results

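The lysyl oxidases Lox, Loxl1, Loxl2, Loxl3 and Loxl4 and the lysyl hydroxylases Plod1, Plod2 and Plod3 are the enzymes that prepare and form the covalent cross-links of collagen and elastin. Members were taken as every gene of these 2 families by symbol, 5 oxidases and 3 hydroxylases, which is 8 of the 49548 genes in the count table. All 8 were among the 15789 genes tested. The study asked how loss of the long non-coding RNA Charme in the mouse is reflected in the transcriptome of cardiac fibroblasts (CFs). Poly(A) RNA was sequenced from native CFs of C57BL/6J mice aged 5 weeks, 3 WT and 3 CharmeKO samples, where CharmeKO carries a polyadenylation signal inserted in the Charme locus. The cells were isolated from whole hearts by enzymatic dissociation, red cell lysis and depletion of hematopoietic lineages, so they were the non-cardiomyocyte fraction and not a sort on a fibroblast marker. The labels also describe a growth medium for these samples, which the methods give for cultured CFs.

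Both families act on lysine residues of matrix proteins, in different compartments. Lysyl hydroxylases work in the endoplasmic reticulum on newly made collagen chains, and the hydroxylysines they leave can carry sugars and become the partners of stable cross-links. Lysyl oxidases are secreted copper enzymes that oxidize lysine and hydroxylysine side chains to aldehydes, which then condense into cross-links between neighbouring collagen or elastin molecules. In the heart, these cross-links are known for setting the stiffness of the interstitial matrix and the recoil of vessel walls.

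The oxidases share a catalytic domain that holds copper through histidines. To show which part of the messages is common to the family, and how far the members differ even there, the bases that encode this copper-binding stretch are given for the 4 LOX-like members, read 5′ to 3′ from the longest protein-coding transcript of GENCODE mouse release 21 (GRCm38). Each window is 57 bases long, on the sense strand, and the capitals mark the 4 histidine codons of the copper-binding motif (another histidine codon, before the motif, is left in lower case).
Loxl1: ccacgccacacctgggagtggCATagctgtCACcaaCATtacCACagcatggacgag
Loxl2: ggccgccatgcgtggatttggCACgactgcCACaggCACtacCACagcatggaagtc
Loxl3: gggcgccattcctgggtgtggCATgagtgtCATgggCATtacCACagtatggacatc
Loxl4: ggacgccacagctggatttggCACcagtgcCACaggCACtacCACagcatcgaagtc
Loxl2 and Loxl4 were the closest pair in this window, with 8 of 57 bases different. Loxl1 and Loxl2, the most abundant oxidases here, differed at 20 of 57 bases, an identity of 64.9%. Over the longest transcripts of all 8 members, the longest exact stretch that any pair shared was 32 bases, between Lox and Loxl1, followed by 28 bases between Loxl1 and Loxl2. None of the 8 is a near-identical copy of another.

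The libraries held between 9595701 (WT replicate 3) and 42101393 (WT replicate 1) counts, and the other 4 between 23550718 and 31048606. Values are given as normalized CPM (counts scaled to the library total after TMM normalization), and a count of 0 would allow up to 3 counts, or 0.0705 to 0.323 CPM, for counting error only. All members lay far above this limit in every library. Charme itself was near the limit, at 0.611, 0.571 and 0.430 CPM in WT and 0.244, 0 and 0 CPM in CharmeKO, lower in all CharmeKO libraries (edgeR adjusted p = 0.362). Nothing in the labels ties a library to a single animal, so p-values measure the spread between these samples. Each fold change is CharmeKO relative to WT.

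The oxidase message of native CFs was mostly Loxl1. Levels of different genes were compared per kb of the longest transcript, over all 6 libraries. Loxl1, which is known for elastic fibre assembly, stood at 217 ± 63.6 CPM per kb (SD, n = 6), followed by Plod1, the hydroxylase of collagen helical lysines, at 110.3 ± 16.3 CPM per kb. The ranges of the 2 genes did not overlap, and Loxl1 was 1.96 times as high. Loxl2, known for cross-linking basement membrane collagen IV, had 55.1 ± 24.2 CPM per kb, and Plod3, which besides hydroxylating lysines transfers sugars to hydroxylysine, had 49.7 ± 5.52 CPM per kb. These neighbours did not differ beyond their spread, since Loxl2 was the higher gene in 3 of 6 libraries.

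The other members were expressed at lower levels. Plod2, the hydroxylase of collagen telopeptides, had 16.03 ± 3.68 CPM per kb, and Plod3 exceeded it 3.10 times without overlap. Lox, the founding oxidase of the family, had 11.4 ± 2.11 CPM per kb and Loxl3, known from palate and spine development, had 10.4 ± 1.09 CPM per kb. The order of this pair was not firm, with Lox higher in 4 of 6 libraries. Loxl4 was the least abundant member at 3.08 ± 0.919 CPM per kb, below Loxl3 by a factor of 3.37 without overlap. The order of 3 pairs depended on the length chosen. Per kb of the mean annotated transcript, Plod1 had 269 CPM per kb and Loxl1 217, because the 6 annotated transcripts of Plod1 average 1.68 kb where its longest has 4.10 kb, and Loxl1 has 1. On that scale Plod3 (90.0) also exceeded Loxl2 (70.03) and Loxl3 (23.5) exceeded Lox (11.7), while Plod2 stood at 29.3 and Loxl4 at 5.82 CPM per kb. On the scale of CPM, Loxl1 ranked 165 and Plod1 ranked 288 among all genes tested.

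Summed over the 5 oxidases, the level was 351, 281 and 431 CPM per kb in WT and 219.8, 185 and 312 CPM per kb in CharmeKO. CharmeKO replicate 3 lay above WT replicate 2, so the groups overlapped. The 3 hydroxylases summed to 170.3, 201 and 201 CPM per kb in WT and 142, 158 and 184 CPM per kb in CharmeKO, which overlapped as well. Per kb of the longest transcript, a choice on which all shares here depend, the shares of the main oxidases overlapped between the genotypes. Loxl1 made up 71.5% to 75.6% of the oxidase level in WT and 72.9% to 73.3% in CharmeKO, and Loxl2 made up 14.9% to 21.6% and 15.4% to 18.3%. Among the hydroxylases, Plod1 held 60.9% to 65.2% in WT and 60.7% to 63.5% in CharmeKO. The share of Plod3 was 26.8% to 27.8% in WT and 28.2% to 31.3% in CharmeKO, the only hydroxylase share without overlap, and it was not tested. The log2 ratio of the oxidase sum to the hydroxylase sum was 0.88 ± 0.34 in WT and 0.54 ± 0.27 in CharmeKO (SD, n = 3 each), with overlapping values. Its sign depended on the length used, since per kb of the mean annotated transcript it was −0.13 ± 0.36 in WT and −0.45 ± 0.26 in CharmeKO.

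**Figure D1:**
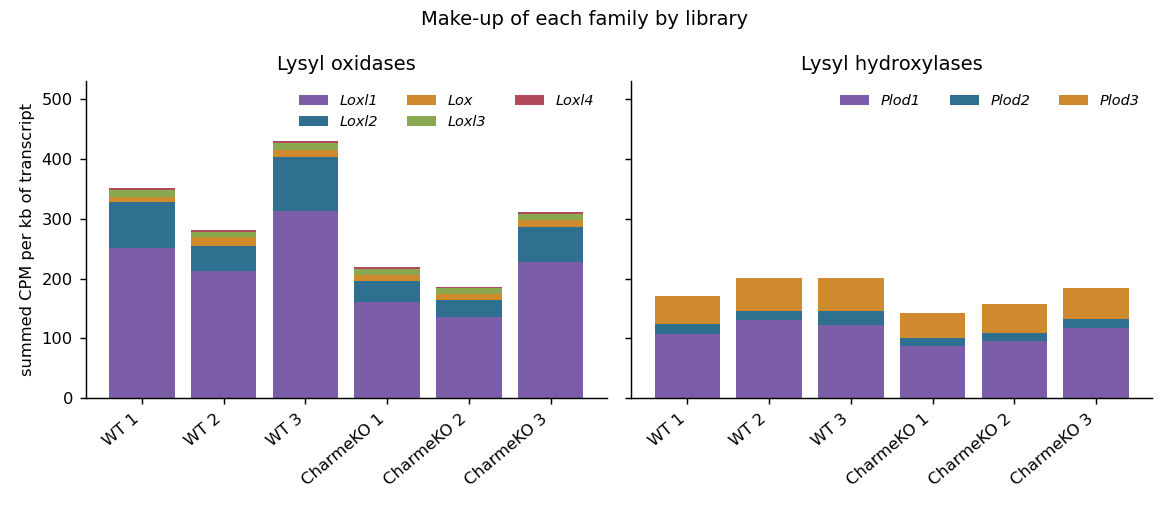
Stacked bars give the summed level of the 5 lysyl oxidases (left) and the 3 lysyl hydroxylases (right) in CPM per kb of the longest transcript, 1 bar for each library. Loxl1 fills over 70% of every oxidase bar, and the oxidase bars range from 185 to 431 CPM per kb while the hydroxylase bars range from 142 to 201.

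In the comparison of CharmeKO with WT native CFs, all 8 members had lower fitted levels in CharmeKO, and no member passed the threshold of the test. The median log2 fold change of the 8 was −0.23, against 0.01 for all genes tested. A log2 fold change below 0 was found for 48.8% of all genes tested. With edgeR's quasi-likelihood test, 0 of 8 members had a Benjamini-Hochberg adjusted p under 0.05, where 0.83% of all genes tested did, 66 of them higher and 65 lower. With DESeq2 it was also 0 of 8, where 2.5% of all genes did. At an unadjusted p under 0.05 in edgeR, 3 of 8 members (Loxl1, Loxl2 and Plod2) were lower, where 6.87% of all genes were, and in DESeq2 it was 2 of 8 (Loxl1 and Plod2, without Loxl2), where 7.3% of all genes were. In 1 of 8 members (Plod2) all CharmeKO libraries lay below all WT libraries, where 8.59% of all genes did. These are bulk samples, in which fewer cells that make a message and less of it per cell cannot be told apart.

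**Figure D2:**
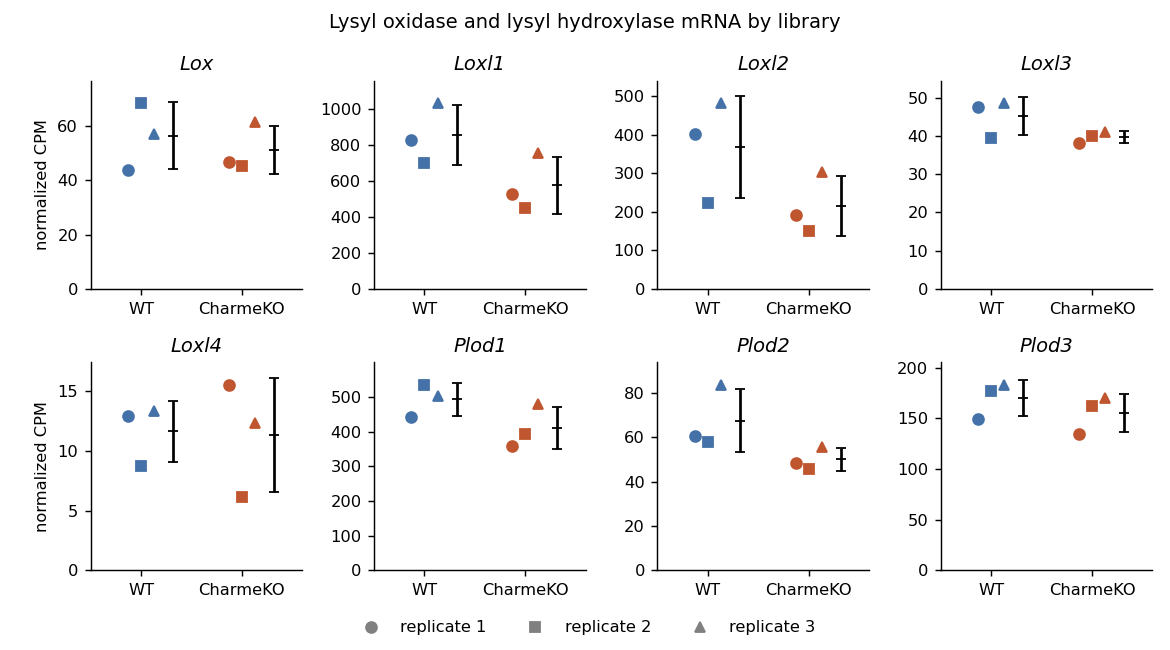
Each panel shows 1 gene in normalized CPM from 0, with a point for each library (circles, squares and triangles for replicates 1, 2 and 3, WT in blue and CharmeKO in orange) and the mean with its SD beside each group (n = 3). Only in the Plod2 panel do all CharmeKO points, up to 55.7 CPM, lie below all WT points, from 57.9 CPM.

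Among the oxidases, Loxl1 and Loxl2 had the largest differences. Loxl1 was measured at 829, 699.9 and 1030 CPM in WT and at 528, 448 and 753 CPM in CharmeKO. CharmeKO replicate 3 was above WT replicate 2, and the other 2 CharmeKO libraries were below every WT library. The means were 853 ± 166 and 576 ± 158 CPM (SD, n = 3 each), 32.4% lower in CharmeKO. The log2 fold change was −0.57 with an SE of 0.20 and a 95% interval of −1.01 to −0.12. On the genes tested, its edgeR adjusted p was 0.275 and its DESeq2 adjusted p 0.0802, so this gene missed the threshold in both tests. With no gene filter the edgeR adjusted p was 0.0126, past the threshold.

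Loxl2 had 403, 223 and 482 CPM in WT and 193, 152 and 303 CPM in CharmeKO. WT replicate 2 was well below the other WT libraries and lay among the CharmeKO values, while CharmeKO replicate 3 exceeded it. The means were 369 ± 133 and 216 ± 78.3 CPM, 41.6% lower in CharmeKO, which was the largest difference of the 8 members. The log2 fold change was −0.77 (SE 0.28, 95% interval −1.40 to −0.15, edgeR adjusted p = 0.291). In DESeq2 its adjusted p was 0.452, and in edgeR with no gene filter, where 2.84% of all genes passed, it was 1.5e-05. The call also turned on WT replicate 2: without it the log2 fold change was −1.04 and the edgeR adjusted p 0.0373, which made Loxl2 the 1 member of 8 past the threshold, where 2.25% of all genes tested were past it. Without any other single library the log2 fold change was between −0.54 and −1.10 and the adjusted p stayed above 0.05.

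The 3 remaining oxidases showed smaller differences. Lox had 43.9, 68.4 and 57.0 CPM in WT and 46.9, 45.2 and 61.5 CPM in CharmeKO. The groups were interleaved, with the lowest value in a WT library, and the log2 fold change of −0.14 (95% interval −0.51 to 0.24, edgeR adjusted p = 0.796) turned to 0.03 without WT replicate 2. Loxl3 had 47.7, 39.6 and 48.5 CPM in WT and 38.0, 40.1 and 41.0 CPM in CharmeKO, with WT replicate 2 among the CharmeKO values and a log2 fold change of −0.19 (95% interval −0.45 to 0.07, edgeR adjusted p = 0.555). Both intervals leave room for a decrease as well as for none. Loxl4 had 12.9, 8.71 and 13.3 CPM in WT and 15.5, 6.14 and 12.3 CPM in CharmeKO, so that CharmeKO held both the highest and the lowest library. Its log2 fold change of −0.03 (95% interval −0.67 to 0.62, edgeR adjusted p = 0.979) had no stable sign, being above 0 without WT replicate 1, WT replicate 3 or CharmeKO replicate 2.

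Among the hydroxylases, Plod2 showed the only full separation of the groups. It was measured at 60.8, 57.9 and 83.7 CPM in WT and at 48.4, 45.9 and 55.7 CPM in CharmeKO. The highest CharmeKO library lay just under the lowest WT library, and WT replicate 3 stood above the rest. The means were 67.4 ± 14.1 and 50.0 ± 5.07 CPM, 25.9% lower in CharmeKO. The log2 fold change was −0.42 (SE 0.15, 95% interval −0.75 to −0.10), with an edgeR adjusted p of 0.269. Without WT replicate 3 the log2 fold change was −0.25 (edgeR adjusted p = 0.639).

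Plod1 had 442, 536 and 502 CPM in WT and 359.8, 393 and 479 CPM in CharmeKO. CharmeKO replicate 3 reached into the WT range, and the log2 fold change was −0.26 (SE 0.14, 95% interval −0.58 to 0.05, edgeR adjusted p = 0.469). Plod3 had 149.9, 177 and 183 CPM in WT and 135, 162 and 170.4 CPM in CharmeKO. All but the lowest CharmeKO library fell within the WT range, and the log2 fold change was −0.13 (SE 0.13, 95% interval −0.42 to 0.16, edgeR adjusted p = 0.756). Neither gene passed the test.

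**Figure D3:**
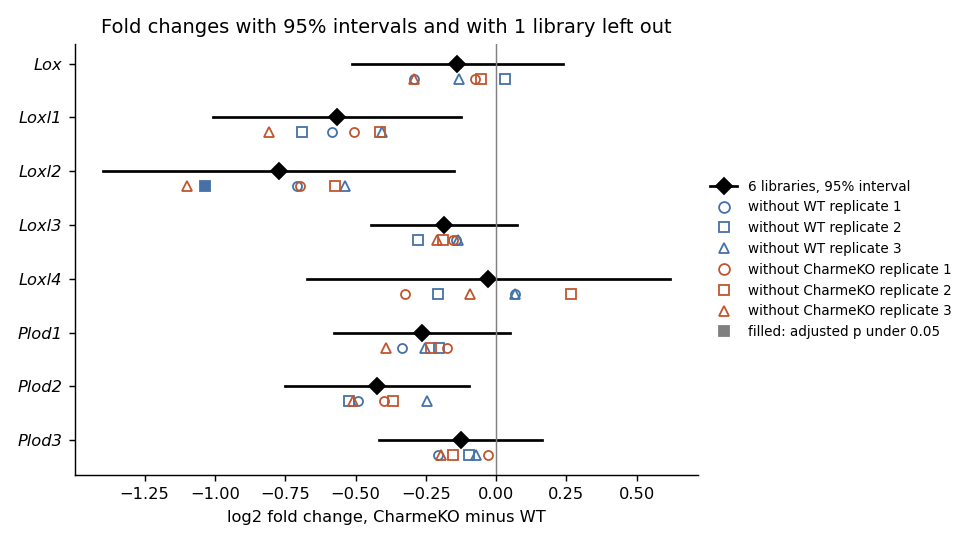
Diamonds with bars give the log2 fold change of each member, CharmeKO relative to WT, with its 95% interval, and the symbols below give it with 1 library left out (filled where the edgeR adjusted p was under 0.05). All 8 diamonds lie below 0, the intervals of Loxl1, Loxl2 and Plod2 do not reach 0, and the only filled symbol is Loxl2 without WT replicate 2, at −1.04.

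Some collagen genes had nearly the profile of Loxl1 and Loxl2 across the libraries. Profiles over the 6 libraries were compared as log2(CPM + 1) minus the gene's own mean, by the root mean square difference, which is 0 for identical profiles, among 8914 genes with a mean of at least 10 CPM. The genes nearest to Loxl1 were Col6a1 (a chain of microfibrillar collagen VI, 0.0743), Adgrd1 (an adhesion receptor, 0.0777) and Col1a2 (a chain of collagen I, 0.0823), where the profile of Loxl1 itself had a root mean square of 0.399. The nearest to Loxl2 were Ret (a receptor tyrosine kinase, 0.110), Col3a1 (a chain of collagen III, 0.121) and Thbs1 (thrombospondin 1, 0.123), against a root mean square of 0.584. For Loxl1 and Loxl2, CharmeKO replicate 3 was the highest CharmeKO library and WT replicate 3 the highest WT library, and the listed genes were chosen for having that same pattern.

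Lox had a different profile. Its nearest genes were Ltbp1 (a latent TGFβ binding protein, 0.0653), Rasa3 and Scamp3, and its difference from Loxl2, 0.593, was the largest between any pair of members. Lox was highest in WT replicate 2, the WT library in which Loxl1 and Loxl2 were lowest. Among the members themselves, the difference was lowest between Plod1 and Plod3 (0.104), whose profiles were also flat, with root mean squares of 0.199 and 0.150. Of the 8914 genes, 109 were nearer to Loxl1 than Plod2 was (difference 0.172), against 360 genes nearer to Plod1 than Plod3 was. This count was made from 1 gene of each pair only, so it does not rank the pairs. Loxl1 was nearer to Plod2 than to Loxl2 (0.225). For Plod1 the nearest genes were Sdc3, Lmf2 and Bag6, for Plod2 Btbd19, Samd14 and Pdlim7, and for Plod3 Map3k10, Marchf2 and Grb10. For Loxl3 they were Parva, Chst1 and Ipo9, and for Loxl4 Rcc1l, Angptl2 and Twist1. These distances describe 6 libraries and include the difference between the genotypes.

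**Figure D4:**
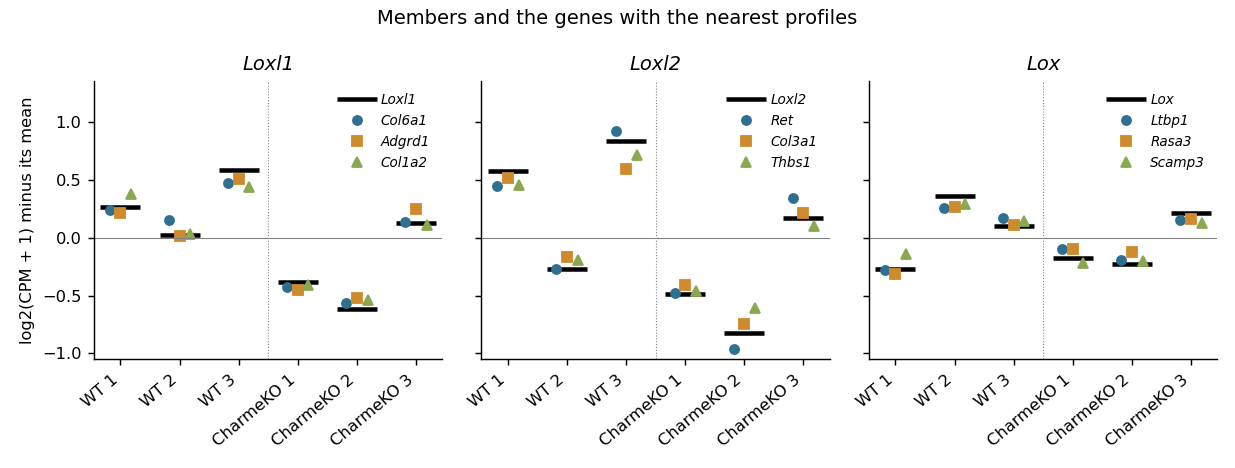
For Loxl1, Loxl2 and Lox, black bars give log2(CPM + 1) minus the gene's mean in each of the 6 libraries, and coloured points give the same for the 3 genes with the nearest profiles. For Loxl1 and Loxl2 the highest value is in WT replicate 3 and the lowest in CharmeKO replicate 2, while Lox is highest in WT replicate 2 and lowest in WT replicate 1.

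The other genes of cross-linking were described by role, from lists of 42 genes, all of which were tested. In CharmeKO the fitted level was lower for 36 of them and higher for 6, and their log2 fold changes had a median of −0.39. With edgeR 1 of 42 passed the adjusted threshold (Eln, lower), against 0.83% of all genes. DESeq2 called 10, against 2.5% of all genes. Of these 10, 9 were lower (Eln, Col1a1, Col4a2, Col5a2, Adamts2, Bmp1, Fmod, Fn1 and Pxdn) and Tll2 was higher. The substrates showed the largest differences, 8 of 8 lower with a median of −0.66, and all 8 at an unadjusted p under 0.05, where 48.8% and 6.87% of all genes tested were. Eln, the precursor of elastin, fell from 2166 ± 682 to 749 ± 215 CPM (log2 fold change −1.53, SE 0.25, edgeR adjusted p = 0.0135), with all CharmeKO libraries below all WT libraries. This call was lost, leaving 0 of 42, without WT replicate 3, CharmeKO replicate 1 or CharmeKO replicate 2. The most abundant substrates were Col4a1, a chain of basement membrane collagen IV, at 8217 CPM in WT and 5704 in CharmeKO (adjusted p = 0.316), and Col3a1 at 7462 and 4891 CPM (adjusted p = 0.347), and neither passed.

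The proteins that hold lysyl oxidases at their fibres had a median of −0.55, with 7 of 8 lower and 0 past the edgeR threshold. Their most abundant genes were Ltbp4, which organizes elastic fibres, at 9573 CPM in WT and 7314 in CharmeKO (log2 fold change −0.39, edgeR adjusted p = 0.325), and Fbn1, the main microfibril protein, at 2359 and 1154 CPM (−1.03, edgeR adjusted p = 0.143). Pro-enzyme processing had 5 of 7 lower, a median of −0.36 and 0 past the edgeR threshold, while DESeq2 called Adamts2, Bmp1 and Tll2. Its most abundant genes were the procollagen N-proteinase Adamts2, at 575 CPM in WT and 339 in CharmeKO (−0.76, edgeR adjusted p = 0.118), and the enhancer of procollagen C-proteinase Pcolce, at 452 and 353 CPM (−0.36, edgeR adjusted p = 0.469). Bmp1, the proteinase that activates the Lox pro-enzyme, is given here after its values were seen: it was at 434 ± 50.5 and 291 ± 39.6 CPM, with all CharmeKO libraries below all WT libraries and an edgeR adjusted p of 0.117. Tll2, a proteinase of the same family and also named after its values were seen, differed in the other direction, at 10.7 ± 1.91 CPM in WT and 18.4 ± 3.89 in CharmeKO (log2 fold change 0.80, edgeR adjusted p = 0.111), with all CharmeKO libraries above all WT libraries. The list held 2 genes with all CharmeKO libraries below WT (Bmp1 and Adamts2), a pattern found in 8.59% of all genes tested. It also held 2 with all above (Tll2 and Pcolce2, an enhancer related to Pcolce), for which the share over all genes was not counted.

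The hydroxylation partners and the copper genes had the medians nearest to 0 of these groups. The partners of lysyl hydroxylation in the endoplasmic reticulum and the glycosyltransferases had a median of −0.03, with 7 of 9 lower and 0 past the threshold. The collagen chaperone Serpinh1 was at 1235 CPM in WT and 1212 in CharmeKO, and the prolyl isomerase Ppib at 195 and 215 CPM. Copper supply had a median of −0.11, with 4 of 5 lower and 0 past the threshold, and its most abundant genes were the copper chaperone Atox1, at 35.1 and 25.7 CPM (edgeR adjusted p = 0.183), and the copper importer Slc31a1, at 25.1 and 23.2 CPM (edgeR adjusted p = 0.792). The other matrix cross-linking enzymes had 5 of 5 lower, a median of −0.36 and 0 past the edgeR threshold. The peroxidase of collagen IV cross-links Pxdn, which DESeq2 called, was at 914 and 640.1 CPM (edgeR adjusted p = 0.224). The transglutaminase Tgm2 was at 602 and 474 CPM (edgeR adjusted p = 0.426).

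**Figure D5:**
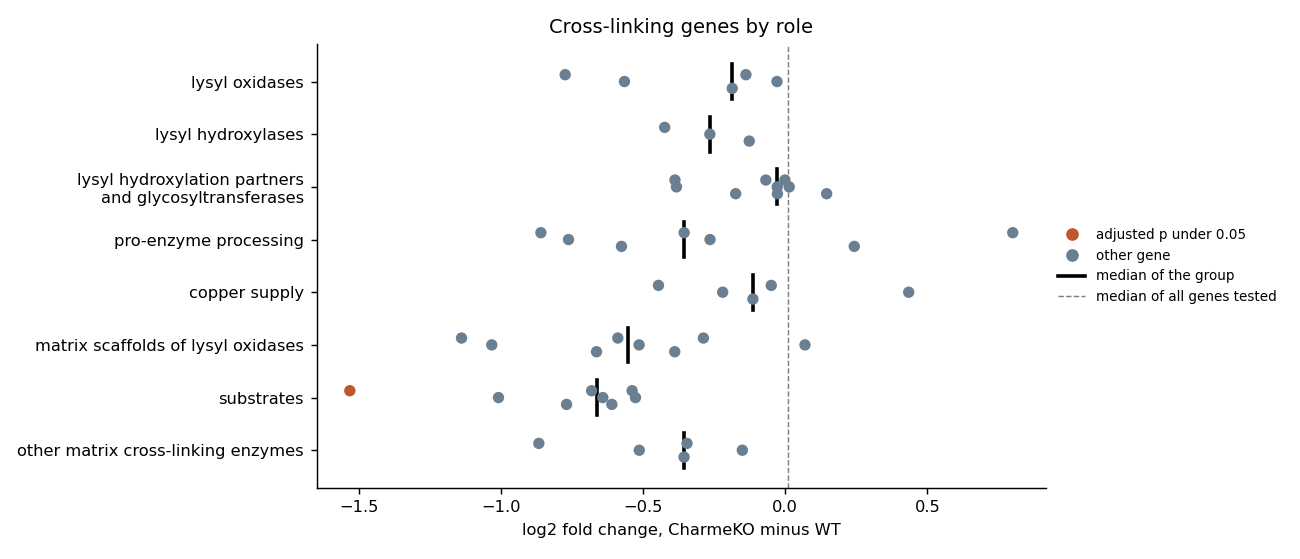
Each point is the log2 fold change of 1 gene, CharmeKO relative to WT, in the group of its role, with the group's median as a black bar and the median of all genes tested (0.01) as a dashed line. The substrates lie farthest to the left, with a median of −0.66, and Eln at −1.53 is the only gene past the edgeR adjusted threshold.

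The enzymes were also set against a substrate in the same library. These ratios do not depend on the scaling between libraries, but 4 of the 7 pairs share Col1a1 and 2 share Col4a1, whose own fitted levels were lower in CharmeKO, so the pairs are not separate observations. The fitted level of Eln was lower as well, with a log2 fold change of −1.53 against −0.57 for Loxl1. The ratio of Loxl1 to Eln restates these 2 differences. The log2 ratio of Loxl1 to Eln was −1.30, −1.16 and −1.495 in WT and −0.06, −0.69 and −0.38 in CharmeKO. All CharmeKO libraries were above all WT libraries, with a difference of 0.94 (SE 0.21). The exact two-sided permutation test gave p = 0.1, the smallest that 3 against 3 libraries allow, and 0.35 after Benjamini-Hochberg adjustment over 7 pairs, so the design could not reach the threshold.

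Loxl1 to Col1a1 was also higher in all CharmeKO libraries, by 0.21 (SE 0.09, exact p = 0.1, adjusted 0.35). The 4 pairs of Lox, Plod1 and Plod2 with Col1a1 and of Plod3 with Col4a1 were higher by 0.66, 0.52, 0.38 and 0.43, with overlapping groups and exact p between 0.2 and 0.3. Only Loxl2 to Col4a1 had a lower mean in CharmeKO, with a difference of −0.21 (SE 0.31, exact p = 0.5). None of the 7 ratios passed an adjusted threshold.

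Marker genes showed which cell types' messages were present in the samples, and cell fractions were not estimated. The 10 fibroblast markers summed to 28193 to 35371 CPM in WT and 28646 to 31931 CPM in CharmeKO, and no list had a marker at 0 in all libraries. Endothelial markers were present at 7122 to 8884 and 7433 to 8964 CPM, mural markers at 2578 to 2931 and 2543 to 2998 CPM, and erythroid markers at 26797 to 39252 and 24423 to 31759 CPM, the last in spite of red cell lysis and lineage depletion, so the members' levels are those of this mixture. Relative to the fibroblast sum, the mean log2 level in CharmeKO minus that in WT was −0.56 for Loxl1, −0.74 for Loxl2, −0.40 for Plod2 and −0.25 for Plod1. Of these, the groups overlapped for all but Plod1, Plod2 included, and they also overlapped for Lox, Loxl3, Loxl4 and Plod3. The groups of Plod1 were apart by little, with the lowest WT value at −6.045 and the highest CharmeKO value at −6.058. Relative to the endothelial sum the groups of Plod1 did not overlap either, and relative to the mural sum they overlapped.

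Genes of other lists differed between the genotypes. The epicardial list summed to 58.1 to 76.2 CPM in WT and 34.0 to 41.7 CPM in CharmeKO, with 6 of its 6 tested genes lower and Wt1 past the edgeR threshold. The cardiomyocyte list summed to 297 to 379 CPM in WT and 427 to 646 CPM in CharmeKO, with 10 of 10 genes higher and Myh6 and Tnni3 past it. Of the 10 dissociation response genes, 5 were lower and 5 higher in CharmeKO, and Hspa1a and Hspa1b were past the threshold and higher. The sum of this list was 29474 to 43159 CPM in WT and 33460 to 37800 CPM in CharmeKO. Of the 8 erythroid genes, 7 were lower and 1 higher in CharmeKO, and Slc4a1 was past the threshold and lower. The part of these genes in the values of the members was not tested.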

How the data were processed

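The deposited values are raw gene counts of the 6 libraries, made by the authors from strand-specific poly(A) reads ("reverse" setting) with an Ensembl annotation, release 87 in the methods, edited to include Charme. The submitters' processing notes name STAR, DESeq2 and GRCm39, and also list GRCh38, a human build. The members and all lists were chosen with earlier results of these data known. Genes reaching 10 counts in 2 or more libraries were tested with edgeR 4.0.16 (R 4.3.3; TMM scaling, quasi-likelihood test, no covariates, Benjamini-Hochberg adjustment over all 15789 genes, threshold 0.05). SEs and 95% intervals were derived from the F statistics. The code was tested on simulated data. No library was a duplicate of another of its group. DESeq2 1.42.0, other scalings and gene filters, the replicate number as a block and each library left out were the alternatives. Transcript lengths came from GENCODE mouse release 21 (GRCm38), so no coordinates are given.

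Named were all members, the genes of each list past the edgeR threshold, and the 2 most abundant genes of each list by role. The cross-linking genes called by DESeq2 were named too. The 3 genes of at least 10 CPM nearest to each member's profile were named as well. Ratios were compared by exact permutation tests. Marker lists that are not described in detail above were leukocyte genes, with summed levels of 27.2 to 50.4 CPM in WT and 33.6 to 48.6 CPM in CharmeKO, and Schwann cell genes, with 36.3 to 39.3 and 32.7 to 36.0 CPM. The sign of each fold change was read as CharmeKO relative to WT.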

Additional observations from a re-analysis of the deposited data

How the results depend on the processing

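The 0 members called became 2 (Loxl1, adjusted p = 0.0126, and Loxl2, adjusted p = 1.5e-05) with no gene filter in edgeR, 2 (adjusted p = 0.0348 and 0.0150) with the replicate block, and 0 to 1 with 1 library left out. Of the 42 other cross-linking genes, 1 was called, 10 with DESeq2, 16 with no gene filter, 12 with the block and 0 to 10 with 1 library left out, 0 without WT replicate 3, CharmeKO replicate 1 or CharmeKO replicate 2 and 10 without WT replicate 2. Of all genes, 131 of 15789 were called, 394 of 15789 with DESeq2, 699 of 24579 with no gene filter and 302 of 15789 with the block. With 1 library left out, the calls ranged from 61 of 15451 (without CharmeKO replicate 1) to 349 of 15522 (without WT replicate 2). The replicate numbers were not taken as a pairing, since same-numbered libraries had correlations of 0.216, 0.0535 and 0.161 in their deviations from the group means, although every library correlated best with its own number. With 1 library left out, log2 fold changes ranged from −0.29 to 0.031 for Lox and from −0.32 to 0.27 for Loxl4, the 2 members whose sign turned. The cause of these changes was not tested. Under the other scalings and the stricter filters no member's call or sign changed, and no ratio changed sign under any alternative run. With 3 libraries a group, and WT replicate 3 the shallowest, differences of the size of most members' intervals could not be told from none.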
